A study of Mus musculus with 15 samples.

Results

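Gm8995 and Gm1966 are a pair of neighbouring genes on mouse chromosome 7 that belong to the very large interferon-inducible GTPases. They were chosen by their own read counts in these brain libraries, scaled to library size as CPM and compared across the 3 groups of mice. They are 2 of the 46078 genes counted and 2 of the 18974 that passed a low-count filter. Since the group levels themselves chose the genes, their differences between groups are given below as a description, with no test.

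The very large GTPases are the giant branch of the interferon-inducible GTPase superfamily. That superfamily also holds the immunity-related GTPases, the guanylate-binding proteins and the Mx proteins, which in infected cells act on vacuoles and viruses after type I interferon or interferon gamma has bound its receptor. The founding member of the giant branch, Gvin1, was described in mouse as interferon-inducible, whereas the roles of the individual mouse copies are largely unstudied. In the brain, microglia, the resident macrophages, carry receptors for both kinds of interferon and gather around amyloid plaques.

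Poly(A) RNA was sequenced from brain tissue of 15 mice, 5 per group, each library being 1 mouse, and the mice were 12 months old. The first group (APP-PS1 anti-CD8a) was APP-PS1 mice that received 10 intraperitoneal injections of 0.8 mg of antibody over 4 weeks, directed at CD8a, which cytotoxic T cells carry beside their antigen receptor. The second held APP-PS1 mice given 100 µL of phosphate-buffered saline (APP-PS1 PBS), and the third wild-type mice given the saline (WT PBS). Mice of both saline groups also received 10 injections over 4 weeks. Mice of both APP-PS1 groups carry Mo/HuAPP695swe, a chimeric amyloid precursor protein, and PS1-dE9, a mutant human presenilin 1, which a prion protein promoter directs to neurons. Animals were perfused and 1 hemisphere was dissected. The tissue is labelled brain, and no region is named in the sources used here.

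Counts assigned to genes ranged from 17736524 to 36485809 per library, so that 3 counts, the limit a count of 0 allows, correspond to between 0.0824 and 0.165 CPM. Astrocyte and neuron markers were abundant, the 6 neuron markers summing to a mean of 5533, 5426 and 5559 CPM in APP-PS1 anti-CD8a, APP-PS1 PBS and WT PBS mice. Labelled sex differed between groups, with 3, 3 and 1 males in the same order, and in 1 library the label did not match its transcripts: APP-PS1 PBS replicate 1, a male by label, held Xist at 1920 CPM and Y-linked transcripts at 2.08 CPM. In 5 libraries (APP-PS1 anti-CD8a replicate 1, APP-PS1 PBS replicates 2 and 5, WT PBS replicates 3 and 5) the choroid plexus transcript Ttr exceeded 1000 CPM. Cd8a itself was scarce, at 0.34 ± 0.26, 0.30 ± 0.15 and 0.21 ± 0.11 CPM in the 3 groups (SD, n = 5 each).

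Gm8995 (ENSMUSG00000063286) occupies chr7:106504239-106511671 on the minus strand of GRCm38, and Gm1966 (ENSMUSG00000073902) lies 85.1 kb away at chr7:106596743-106604035 on the same strand. GENCODE calls Gm8995 a transcribed unprocessed pseudogene and Gm1966 an unprocessed pseudogene, meaning copies made by duplication of DNA and not by reverse transcription. RefSeq differs, listing Gm8995 as a non-coding RNA and Gm1966 as protein coding, with a gene that extends to chr7:106595549-106644646. Both are long and almost without introns in GENCODE, with 7.433 kb of exon in Gm8995 and 7.293 kb, a single exon, in Gm1966. The longest reading frame from a start to a stop codon spans 2290 codons in the Gm8995 transcript and 2430 codons in that of Gm1966. For scale, it spans 2427 codons in Gvin1, which GENCODE lists as protein coding.

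By sequence the family held 10 genes, defined here as transcripts with at least 80% identity over at least 1500 bases to either gene, and all 10 sat in 779.8 kb of chromosome 7 between 105824223 and 106604035. Gm1966 matched Gm8995 at 91.9% of 7288 aligned bases. Despite this, most of either transcript can be told from its relatives by a read of the length used: 92.8% of the 75-base words of Gm8995 and 94.4% of those of Gm1966 occurred in no transcript of another gene. The corresponding share was 100.0% in Gm4759, 61.6% in 9130208D14Rik, 29.7% in Gm8989 and 21.8% in Gm8979. It was only 1.7% in both Gvin1 and Gm4070, which are near copies of each other, and 2.2% in both Gm18852 and Gm18853, so counts of those 4 genes are uncertain. The 75 bases below, from the middle of the transcripts, show how a single read separates the copies. Capitals mark bases that differ from Gm8995. The stretches lie at chr7:106507394-106507468 for Gm8995 and chr7:106599755-106599829 for Gm1966 (GRCm38, minus strand, written as in the transcript), and 10 bases differ between them. Gvin1 differs from Gm8995 at 6 bases, and Gm4070 carries exactly the same stretch as Gvin1.
Gm8995: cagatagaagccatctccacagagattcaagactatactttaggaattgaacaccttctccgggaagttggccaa
Gm1966: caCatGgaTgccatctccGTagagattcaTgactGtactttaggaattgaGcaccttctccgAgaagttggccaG
Gvin1: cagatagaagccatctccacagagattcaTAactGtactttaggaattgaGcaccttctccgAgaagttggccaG

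Interferon-induced genes commonly carry an interferon-stimulated response element near their start. The RefSeq promoter table (GRCm38.p6, 250 bases before to 50 after each start) held 1 of the 10 family genes, Gm1966. Its start lies 40.6 kb upstream of the exon that GENCODE gives the gene. It is printed beside the promoter of Irgm1, an immunity-related GTPase that regulates other members of its family, because Irgm1 is among the tested interferon-inducible GTPases below. Capitals mark a pair of GAAA boxes with any 2 bases between them, read on either strand, overlapping matches included. The Gm1966 promoter (chr7:106644596-106644895, minus strand) held 1 match, on the opposite strand, and the Irgm1 promoter (chr11:48871371-48871670, minus strand) held 2 that overlap. Such a match was present in 3.44% of 32851 promoters, and it describes letters in this window without showing that a factor binds. Neither promoter held the letters of a gamma-activated site, TTC and GAA with any 3 bases between them, which occurred in 8.3% of all promoters. The promoter of Irgm2, another immunity-related GTPase tested below, held 1 match of each kind.
Gm1966 promoter: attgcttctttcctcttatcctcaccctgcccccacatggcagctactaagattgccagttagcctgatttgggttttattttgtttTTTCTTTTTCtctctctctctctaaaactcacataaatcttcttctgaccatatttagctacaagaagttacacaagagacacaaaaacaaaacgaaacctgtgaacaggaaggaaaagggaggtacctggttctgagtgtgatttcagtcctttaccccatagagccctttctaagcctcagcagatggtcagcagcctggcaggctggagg
Irgm1 promoter: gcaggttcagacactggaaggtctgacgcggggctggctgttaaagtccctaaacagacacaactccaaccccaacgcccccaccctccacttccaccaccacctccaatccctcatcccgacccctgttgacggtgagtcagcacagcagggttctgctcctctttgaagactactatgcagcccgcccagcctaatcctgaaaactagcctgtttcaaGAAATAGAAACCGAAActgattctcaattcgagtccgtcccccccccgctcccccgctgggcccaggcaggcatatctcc

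Gm8995 was higher in the APP-PS1 libraries of both treatments than in WT libraries. In the 5 APP-PS1 anti-CD8a mice it stood at 10.5, 11.8, 18.2, 13.9 and 10.1 CPM, in the 5 APP-PS1 PBS mice at 11.9, 8.94, 10.5, 13.0 and 12.3 CPM, and in the 5 WT PBS mice at 5.31, 5.04, 4.59, 5.04 and 5.18 CPM. Every APP-PS1 library was above every WT library, while the 2 APP-PS1 groups overlapped. The group means were 12.9 ± 3.31, 11.3 ± 1.61 and 5.03 ± 0.271 CPM (SD, n = 5 each), from 2037, 1514 and 769 reads in all. APP-PS1 PBS mice thus had 2.25 times the mean level of WT PBS mice, with a log2 fold change of 1.26 (SE 0.14) in edgeR's model of group and labelled sex.

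The coefficient of variation of Gm8995 was 25.7% in APP-PS1 anti-CD8a mice, 14.2% in APP-PS1 PBS mice and 5.38% in WT PBS mice. Counting alone gives 4.95%, 5.75% and 8.06% at the mean read numbers of the 3 groups, and the spreads were not compared by a test. Replicate 3 of the anti-CD8a group was highest, at 18.2 CPM, and the next library of the group was at 13.9 CPM.

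**Figure D1:**
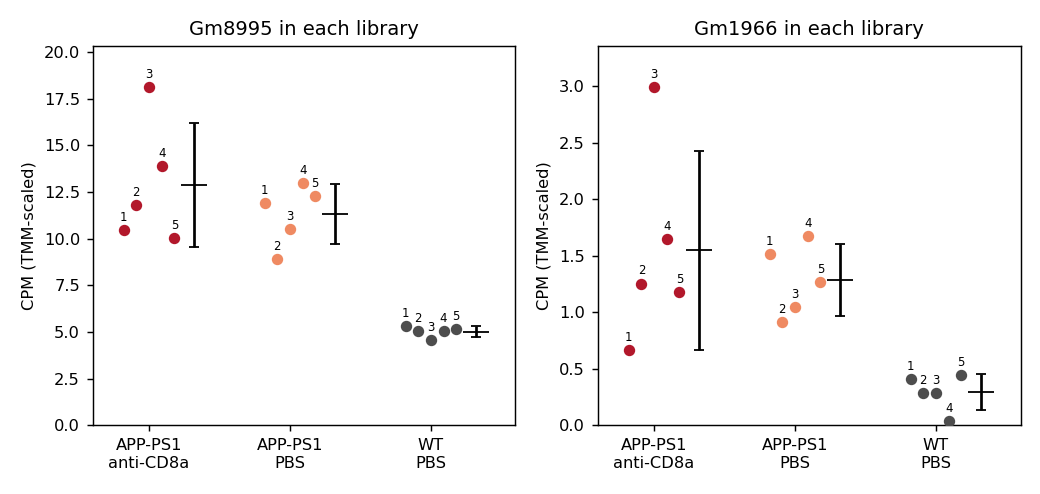
Levels of Gm8995 (left) and Gm1966 (right) in each library, in TMM-scaled CPM on linear axes that start at 0. Each point is 1 mouse and carries its replicate number, and the bars beside the points show mean and SD (n = 5). For both genes all 10 APP-PS1 libraries lie above all 5 WT libraries, and APP-PS1 anti-CD8a replicate 3 is the highest of all, at 18.2 CPM for Gm8995 and 3.00 CPM for Gm1966.

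Gm1966 showed the same order of groups with far fewer reads. It stood at 0.668, 1.26, 3.00, 1.65 and 1.18 CPM in APP-PS1 anti-CD8a mice, at 1.52, 0.918, 1.05, 1.68 and 1.27 CPM in APP-PS1 PBS mice, and at 0.411, 0.290, 0.289, 0.0424 and 0.450 CPM in WT PBS mice. WT libraries held between 1 and 16 reads of it, and the lowest, replicate 4, had a single read, under the limit of 3 counts. APP-PS1 libraries held between 20 and 89 reads. The means were 1.55 ± 0.881, 1.29 ± 0.317 and 0.296 ± 0.159 CPM (SD, n = 5 each), which puts APP-PS1 PBS mice at 4.34 times the WT PBS mean, with a log2 fold change of 2.19 (SE 0.42). Without WT PBS replicate 4 that log2 fold change was 1.96.

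Across the APP-PS1 PBS and WT PBS groups, 2 of 2 genes did not overlap, all 25 of 25 pairs of libraries being higher in APP-PS1 PBS for each gene. Of all genes tested, 1.83% were higher without overlap in that comparison, but since these levels chose the genes nothing can be read from the count. The same held between APP-PS1 anti-CD8a and WT PBS mice, where 2 of 2 genes did not overlap against 2.16% of all genes tested. There the log2 fold changes were 1.44 (SE 0.14) for Gm8995 and 2.41 (SE 0.40) for Gm1966. These 2 comparisons share the WT libraries and are not independent of each other. In bulk tissue a larger number of cells that express a gene and more RNA per cell cannot be told apart.

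Between the 2 APP-PS1 groups the genes overlapped widely. Gm8995 was higher in the anti-CD8a library in 14 of 25 pairs and Gm1966 in 13 of 25 pairs, with log2 fold changes of 0.18 (SE 0.13) and 0.22 (SE 0.34). Both values leaned on APP-PS1 anti-CD8a replicate 3: without it they were 0.05 for Gm8995 and -0.11 for Gm1966. In the same comparison 0 of 18974 genes passed an adjusted p of 0.05 by edgeR's quasi-likelihood test, a share of 0%, whereas 2529 had an unadjusted p under 0.05 and DESeq2 called 143.

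Since every APP-PS1 library lay above every WT library for both genes, any split of the libraries must keep that separation. The values within strata of the labels are therefore given for their size only and are no further support. The animal numbers in the labels fall into a lower and a higher run. Among the lower-numbered animals, Gm8995 averaged 13.5, 11.3 and 4.98 CPM in APP-PS1 anti-CD8a, APP-PS1 PBS and WT PBS mice (n = 3 each), and among the higher-numbered it averaged 12.0, 11.4 and 5.11 CPM (n = 2 each). Gm1966 averaged 1.64, 1.37 and 0.330 CPM among the lower-numbered animals and 1.42, 1.16 and 0.246 CPM among the higher-numbered. With the 5 Ttr-rich libraries left out, the lowest APP-PS1 library had 10.1 CPM of Gm8995 and the highest WT library 5.31 CPM. Among labelled females Gm8995 averaged 15.0, 12.7 and 5.00 CPM (n = 2, 2 and 4), and the only labelled male in the WT group had 5.18 CPM.

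The 2 genes were far apart in level once their length was taken into account. Per kb of exon, Gm8995 averaged 1.73, 1.53 and 0.677 CPM and Gm1966 averaged 0.213, 0.176 and 0.0406 CPM in APP-PS1 anti-CD8a, APP-PS1 PBS and WT PBS mice. The median ratio of Gm8995 to Gm1966 per kb was 8.35, 9.51 and 15.6 in the same order of groups. Put as shares, Gm1966 took 10.7% of the reads of both genes in APP-PS1 anti-CD8a mice, 10.4% in APP-PS1 PBS mice and 5.88% in WT PBS mice. The exact 95% binomial intervals, which cover counting error only, were 9.46 to 12.0%, 8.95 to 11.9% and 4.36 to 7.71%. In single libraries the share ran from 5.99 to 14.2% in APP-PS1 anti-CD8a mice, from 9.03 to 11.4% in APP-PS1 PBS mice and from 0.833 to 8.0% in WT PBS mice, so that the anti-CD8a and WT ranges overlapped.

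The other family members gave few counted reads, and only Gm4070 also passed the low-count filter. Summed over the 5 libraries of APP-PS1 anti-CD8a, APP-PS1 PBS and WT PBS mice, Gm4070 had 57, 46 and 43 reads and Gvin1 53, 32 and 31 reads. Gm4759, the closest neighbour of Gm8995 on its other side, had 28, 38 and 11 reads, and 9130208D14Rik, at the far end of the cluster, 20, 30 and 8 reads. Each of the remaining 4 copies (Gm8979, Gm8989, Gm18852 and Gm18853) had 8 reads or fewer per group. Gm8995 and Gm1966 therefore made up most of the family's counted reads. They took 2281 of 2453 in APP-PS1 anti-CD8a, 1689 of 1842 in APP-PS1 PBS and 817 of 916 in WT PBS mice. Words of read length found in no other gene made up 1.7% of Gvin1 and of Gm4070, against 92.8% of Gm8995 and 94.4% of Gm1966. That share was 100.0% in Gm4759 and 61.6% in 9130208D14Rik. The treatment of reads that match several copies is not given, so the pair's share of the family's RNA is unknown.

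In edgeR's quasi-likelihood fit to all 33134 genes with no low-count filter, the estimate for APP-PS1 PBS over WT PBS mice was 1.95 on the log2 scale for Gm4759 (SE 0.50, adjusted p = 0.0659) and 1.92 for 9130208D14Rik (SE 0.62, adjusted p = 0.252). Neither passed the threshold. The values for Gvin1 and Gm4070 in that fit were 0.52 (SE 0.37, adjusted p = 0.78) and 0.48 (SE 0.39, adjusted p = 0.795). Neither of these passed either.

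No gene outside the family was called around the cluster. Within 1 Mb of its ends the table holds 87 genes outside the family, 49 of them olfactory receptors, and 22 passed the low-count filter. By edgeR's quasi-likelihood test 0 of the 22 passed in any of the 3 comparisons, and DESeq2 also called 0. Over all genes 1.03% passed between APP-PS1 PBS and WT PBS, 0% between the APP-PS1 groups and 1.94% between APP-PS1 anti-CD8a and WT PBS mice. Their log2 fold changes between APP-PS1 PBS and WT PBS mice ran from -0.39 to 0.21, with a median of -0.05, beside -0.01 for all genes tested and the 1.26 and 2.19 of Gm8995 and Gm1966.

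**Figure D2:**
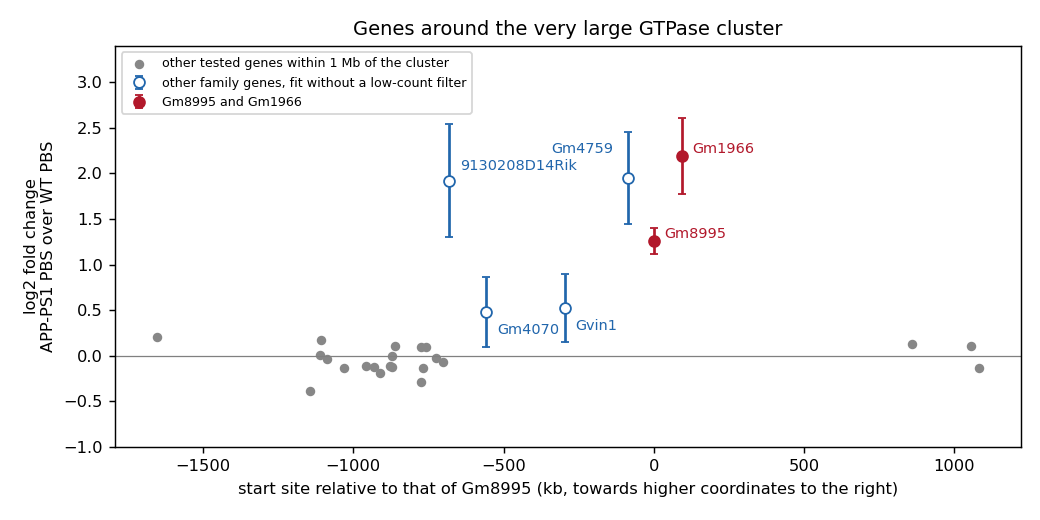
Log2 fold change between APP-PS1 PBS and WT PBS mice (vertical axis) against the position of each gene's start relative to that of Gm8995 in kb (horizontal axis). Red points are Gm8995 and Gm1966, open blue points 4 other family genes from a fit with no low-count filter, both with SE bars, and grey points the 22 other tested genes within 1 Mb of the cluster. The grey points lie between -0.39 and 0.21, and Gvin1 and Gm4070, whose reads cannot be told apart, lie near 0.5.

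Over the 15 libraries, the level of Gm8995 ran closest to that of macrophage genes. Among 15682 genes with a mean of at least 1 CPM, the 5 highest Pearson correlations of log2 CPM were those of Cd52 (r = 0.98), Mpeg1 (0.98), Ly86 (0.98), Itgax (0.98) and Trem2 (0.98). Mpeg1 encodes a pore-forming protein of macrophages, Itgax the integrin CD11c, and Trem2 a lipid-sensing receptor of microglia that signals through Tyrobp. Since all of them differ between genotypes, the group means were then subtracted, and the 4 genes most like Gm8995 in what remained were Cd68 (r = 0.95), Fcer1g (0.95), Mpeg1 (0.95) and Tyrobp (0.94). Cd68 is a lysosomal protein of phagocytes, and Fcer1g and Tyrobp are adaptor chains of myeloid receptors. Without APP-PS1 anti-CD8a replicate 3 these 4 values lay between 0.87 and 0.91. The libraries share depth and tissue composition, so these are descriptions and carry no p.

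The same was seen for the marker list as a whole. Within groups, the 10 microglia markers correlated with Gm8995 with a median r of 0.84. Medians were 0.56 for 36 type I interferon-induced genes, 0.45 for 19 interferon-gamma-induced genes, 0.46 for 8 immunity-related GTPases and 0.34 for 8 guanylate-binding and Mx proteins. The 6 astrocyte markers had a median of 0.34 and ran from -0.04 to 0.85. The highest was Gfap, which over all libraries reached 0.97, so a high value was not limited to microglia markers. Medians were -0.17 for neuron markers, -0.05 for 19 neighbours on chromosome 7, and 0.00 for all genes. Leaving out APP-PS1 anti-CD8a replicate 3 lowered the medians to 0.66 for microglia markers, 0.30 for type I interferon-induced genes and 0.17 for immunity-related GTPases.

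Gm1966 has fewer reads, and its list was more mixed. Over all libraries it was most like Ptpn6 (r = 0.93), Gfap (0.92), Slc11a1 (0.92), Itgb3 (0.92) and Itgax (0.91), a phosphatase of immune cells, the intermediate filament of astrocytes, a metal transporter of phagosomes and a pair of integrins. Within groups the list was Pstpip1 (0.91), Hoga1 (0.87), Cdpf1 (0.84), Fut10 (0.84) and Shpk (0.83), of which only Pstpip1, a cytoskeletal adaptor of blood cells, is known chiefly from immune cells. All within-group values of Gm1966 lean in part on WT PBS replicate 4, where it had 1 read. Its deviation from the group mean was largest there, at -1.55 in log2 CPM. Its within-group median with the microglia markers was 0.51, and 0.23 without APP-PS1 anti-CD8a replicate 3. Gm8995 and Gm1966 correlated with each other at 0.91 over all libraries and at 0.62 within groups, or 0.44 without that replicate. In WT PBS replicate 4 Gm8995 deviated from its group mean by only 0.005, against -1.55 for Gm1966. No within-group r was computed without that WT library, so how closely the pair ran together is uncertain.

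**Figure D3:**
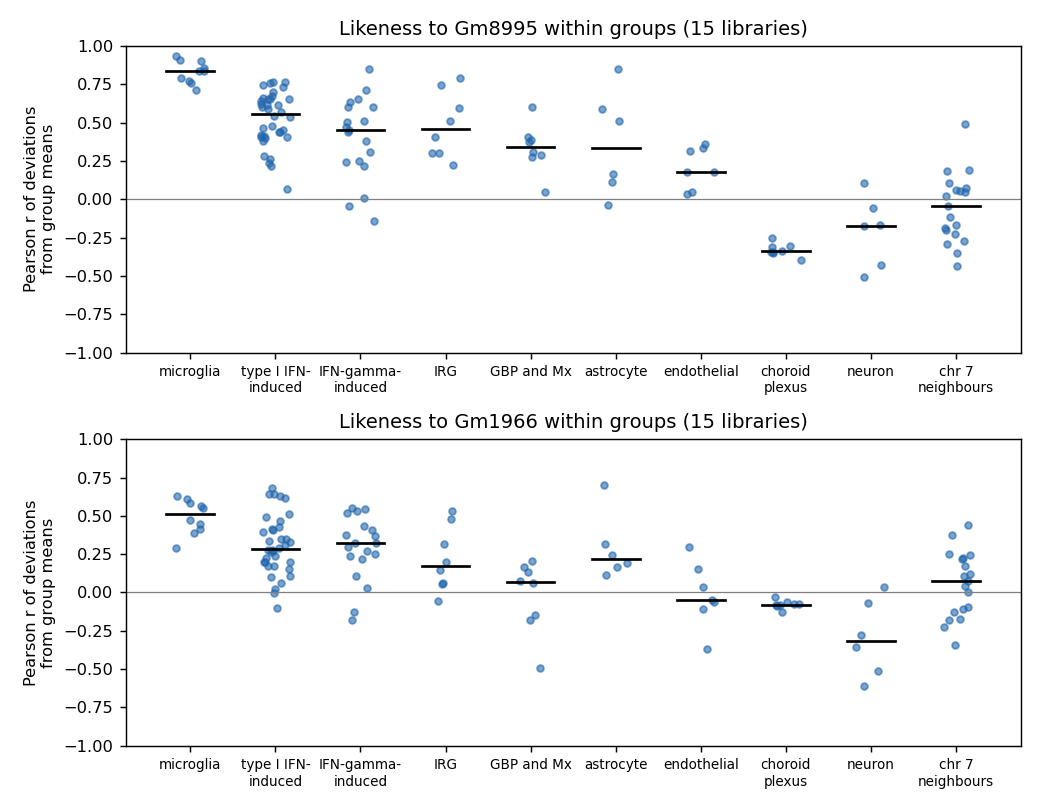
Pearson correlation with Gm8995 (top) and Gm1966 (bottom), over 15 libraries after the group means of log2 CPM were subtracted, for genes of 10 lists. Each point is a gene and each bar the median of its list. The microglia markers stand highest for Gm8995, with a median of 0.84, and the medians of neuron markers and chromosome 7 neighbours are -0.17 and -0.05.

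**Figure D4:**
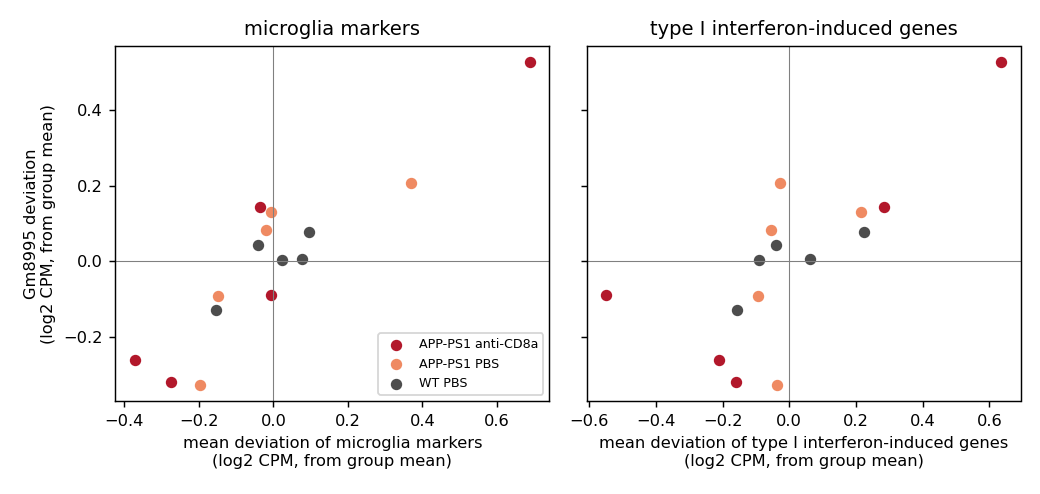
Deviation of Gm8995 from its group mean in log2 CPM (vertical axis) against the mean deviation of the microglia markers (left) and of the type I interferon-induced genes (right). Each point is 1 library, coloured by group. APP-PS1 anti-CD8a replicate 3 is highest on every axis, at 0.53 for Gm8995, 0.69 for microglia markers and 0.63 for type I interferon-induced genes.

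Microglia markers also moved with the genotype. Their summed level was 606 to 1165 CPM in APP-PS1 anti-CD8a mice, 620 to 856 CPM in APP-PS1 PBS mice and 408 to 478 CPM in WT PBS mice, and none of the 10 was at 0. By edgeR's quasi-likelihood test 7 of 10 rose in APP-PS1 PBS over WT PBS mice, where 0.938% of all genes passed in that direction, and 9 of 10 in APP-PS1 anti-CD8a over WT PBS mice, where 1.76% did. The sum was 1.55 times as high in APP-PS1 PBS as in WT PBS mice, set beside 2.25 times for Gm8995 and 4.34 times for Gm1966. Single markers varied more, with Cx3cr1, the fractalkine receptor, 1.38 times, Trem2 2.67 times and Cst7 55.1 times as high. Cst7 averaged only 0.350 CPM in WT PBS mice. The part of microglia in the levels of the pair was not tested.

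Among astrocyte markers Gfap rose (log2 fold change 1.22, SE 0.14, adjusted p = 0.000292 by edgeR's quasi-likelihood test) and so did the water channel Aqp4 (0.46, SE 0.10, adjusted p = 0.0459) between APP-PS1 PBS and WT PBS mice, 2 of 6, where 0.938% of all genes passed in that direction. Without the 5 Ttr-rich libraries 1 of 6 passed. The summed astrocyte markers were 6996 to 8032 CPM in APP-PS1 PBS mice and 6234 to 6965 CPM in WT PBS mice. Their part was not tested either. Of 4 T cell, 7 peripheral myeloid, 7 endothelial, 8 choroid plexus, 4 B cell and 6 neuron markers that could be tested, edgeR called 0 in any of the 3 comparisons, while DESeq2 called 1 neuron marker between APP-PS1 anti-CD8a and WT PBS mice. T cell markers summed to 3.64 to 4.85 CPM in APP-PS1 anti-CD8a mice, 3.15 to 4.59 CPM in APP-PS1 PBS mice and 3.49 to 4.24 CPM in WT PBS mice.

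Genes of the interferon pathway were set beside the pair, starting with the ligands. All 10 interferon genes examined were too low to test. Ifng had 3, 2 and 1 reads in APP-PS1 anti-CD8a, APP-PS1 PBS and WT PBS mice, and Ifnb1 had 0 in all 15 libraries. Of 19 receptors and signalling genes, 1 rose in APP-PS1 PBS over WT PBS mice, Irf8, a transcription factor of myeloid cells (9.44 ± 2.39 against 5.45 ± 0.590 CPM, n = 5 each; log2 fold change 0.92, SE 0.17, edgeR adjusted p = 0.0122). The median of that list was 0.08, and DESeq2 called 3 of its genes. Over all genes 0.938% passed as higher by edgeR in that comparison.

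The interferon-inducible relatives of the pair were compared between APP-PS1 PBS and WT PBS mice, where 0.938% of all genes passed as higher. Of 14 immunity-related GTPases, 1 rose in APP-PS1 PBS over WT PBS mice, 9930111J21Rik2 (13.3 ± 1.54 against 9.70 ± 0.614 CPM; log2 fold change 0.50, SE 0.11, edgeR adjusted p = 0.0308), and the median was 0.47, with all 14 estimates above 0. Of 11 guanylate-binding and Mx proteins 0 passed by edgeR's quasi-likelihood test or by DESeq2, and their median was 0.48. Among 41 type I interferon-induced genes Eif2ak2, the double-stranded RNA-dependent kinase, was the 1 that rose (0.52, adjusted p = 0.0269), with a median of 0.46. Among 19 interferon-gamma-induced genes B2m (0.66, adjusted p = 0.0138) and H2-D1 (0.53, adjusted p = 0.0363), the chains of class I histocompatibility molecules, rose, with a median of 0.39. The median of all genes tested was -0.01. Without the 5 Ttr-rich libraries 0 genes of these 4 lists passed. DESeq2, with every library, called 1 immunity-related GTPase, 5 type I and 3 interferon-gamma-induced genes. Largest in these 4 lists was a log2 fold change of 1.42, above that of Gm8995 and below that of Gm1966.

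**Figure D5:**
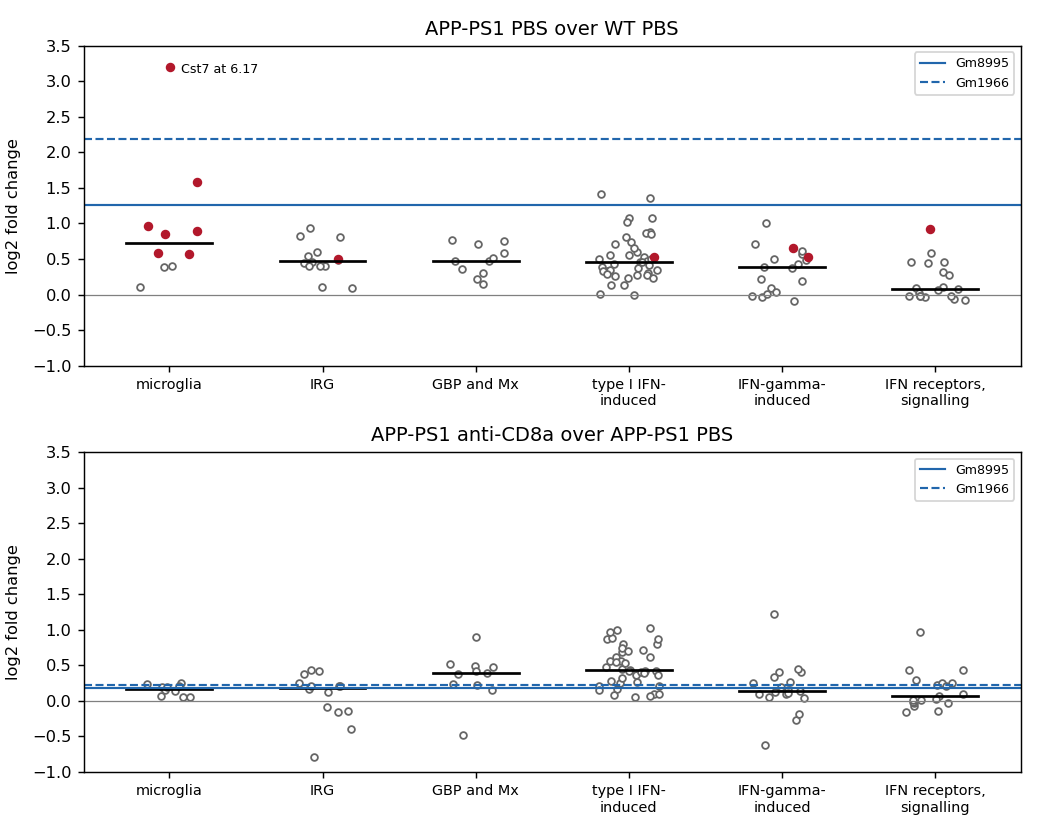
Log2 fold changes of genes in 6 lists (columns; IRG, immunity-related GTPases; GBP, guanylate-binding proteins; IFN, interferon) for APP-PS1 PBS over WT PBS (top) and APP-PS1 anti-CD8a over APP-PS1 PBS (bottom). Filled red points passed an adjusted p of 0.05 by edgeR's quasi-likelihood test, black bars are medians, and blue lines mark Gm8995 (solid, 1.26 and 0.18) and Gm1966 (dashed, 2.19 and 0.22). Cst7, at 6.17, is drawn at the top of its axis.

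Between APP-PS1 anti-CD8a and APP-PS1 PBS mice no member of these lists passed by edgeR. The median of the type I interferon-induced genes was 0.44, and all 41 estimates were above 0, beside 0.18 and 0.22 for Gm8995 and Gm1966 and 0.02 for all genes. The 41 genes come from the same mice and are not independent. Their summed level overlapped, at 314 to 576 CPM in APP-PS1 anti-CD8a and 301 to 372 CPM in APP-PS1 PBS mice. Only anti-CD8a replicates 3 and 4, at 576 and 445 CPM, lay above the APP-PS1 PBS range. DESeq2 called 2 type I genes and 1 signalling gene in this comparison.

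Between APP-PS1 anti-CD8a and WT PBS mice the lists held more calls, and their number depended on which libraries were used. As background, 1.76% of all genes passed as higher. By edgeR's quasi-likelihood test 24 of 41 type I interferon-induced genes rose, 5 of 11 guanylate-binding and Mx proteins (Gbp3, Gbp5, Gbp6, Mx1 and Mx2), 2 of 14 immunity-related GTPases (Irgm1 and Irgm2), 7 of 19 interferon-gamma-induced genes and 6 of 19 receptors and signalling genes. Irgm1 stood at 18.1 ± 4.84 CPM in APP-PS1 anti-CD8a mice and 11.3 ± 0.872 CPM in WT PBS mice (log2 fold change 0.70, SE 0.15, adjusted p = 0.0163). Without APP-PS1 anti-CD8a replicate 3 the counts were 5, 0, 0, 2 and 1, and without the 5 Ttr-rich libraries 2, 0, 0, 1 and 1. Over all genes the calls in either direction numbered 369, against 140 without that replicate and 199 without the Ttr-rich libraries. The log2 fold changes without the replicate were 0.50 for Irgm1, 0.79 for Gbp3 and 1.28 for Mx1, beside 0.70, 1.06 and 1.64 with it. For Gm8995 and Gm1966 they were 1.26 and 1.96, beside 1.44 and 2.41 with it.

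Labelled sex was not used by the rule that chose the pair, so the pair was tested on it. Labelled males differed from labelled females, within groups, by -0.24 for Gm8995 on the log2 scale (SE 0.11, 95% interval -0.489 to 0.0102, adjusted p = 0.979 by edgeR's quasi-likelihood test) and -0.40 for Gm1966 (SE 0.31, interval -1.09 to 0.284, adjusted p = 1). Neither passed the threshold, and 0.0316% of all genes did. Without APP-PS1 anti-CD8a replicate 3, a female, the values were -0.12 and -0.05. Without APP-PS1 PBS replicate 1, labelled male but with female transcripts, they were -0.27 and -0.49. The WT PBS group held only 1 labelled male.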

How the data were processed

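The authors deposited raw read counts for 46078 Ensembl genes in each of 15 libraries. HTSeq 0.11.2, Bowtie2 2.2.2, FastQC and DESeq2, with GRCm38 as the build, are named per the submitters' processing notes. Per the labels' protocols the kit was stranded and the run had 75 cycles. No source used here gives the annotation release, the strand setting of the counting or the treatment of reads that match several copies. The 5 HTSeq summary lines name no gene and entered neither library sizes nor tests; reads without a feature made up 20.0 to 25.9% per library, ambiguous reads 1.64 to 1.79% and reads that were not unique 2.70 to 2.92%. Each library is a separate mouse by its animal number.

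CPM were computed here with TMM scaling, and CPM per kb with the exon length of GENCODE M21. Genes other than the pair were tested with edgeR 4.0.16 in R 4.3.3 (quasi-likelihood, two-sided). The filter filterByExpr kept 18974 genes. The model had terms for group and sex as labelled and used every library (11 residual degrees of freedom), with Benjamini-Hochberg adjustment and a threshold of 0.05. Standard errors derive from the F statistic. The procedure was tested on simulated data. Likeness is Pearson's r of log2 CPM with a prior count of 2. Gene and marker lists were described by counts and medians. Named genes were the pair, its family, tested genes within 1 Mb, the 5 genes most like each, and up to 4 genes of smallest p per list and comparison; Gbp6 was named after its value was seen, and 1 gene that the rule takes is not reported here. The pair and the lists were chosen with earlier results of these data known.

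The family was defined by sequence from GENCODE M21 transcripts, since some listed symbols matched no gene. One listed symbol, Gm17092, is an antisense gene elsewhere and was left out, and 9130208D14Rik and Gm18852 were added. Promoter sequences come from RefSeq (GRCm38.p6). Alternatives were other scalings and filters, DESeq2 1.42.0, limma-voom (limma 3.58.1), no sex covariate, a covariate for the animal number run, the 2 groups alone, and leaving out the Ttr-rich libraries or each library in turn. Sex as Xist and the Y chromosome show it, values within strata, and likeness without APP-PS1 anti-CD8a replicate 3 were added after the data were seen.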

Additional observations from a re-analysis of the deposited data

Results flagged for a closer look

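In APP-PS1 anti-CD8a mice 1 library, replicate 3, stood apart for 2 of the quantities examined here. The microglia markers summed to 1165 CPM in it, and the next library of the group had 753.3 CPM. Gvin1, a coding relative of Gm8995 and Gm1966 whose reads can hardly be told from those of Gm4070, had 0.6062 CPM in it, from 18 reads, and the next library had 0.3004 CPM, from 9 reads. These were 2 of 30 groups of 5 libraries examined for a single distant value, and chance alone marks about 1 in 20. Gm8995 and Gm1966 were also highest in that library, at 18.2 and 3.00 CPM, but neither stood as far from its group.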

How the results depend on the processing

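Under 11 alternative settings the log2 fold changes between APP-PS1 PBS and WT PBS mice ran from 1.17 to 1.39 for Gm8995 and from 2.06 to 2.75 for Gm1966. The 2.75 came without the Ttr-rich libraries, as did 2.95 between APP-PS1 anti-CD8a and WT PBS mice, and both moved by more than the standard error. Leaving out each library in turn gave 1.21 to 1.38 and 1.96 to 2.61, and between APP-PS1 anti-CD8a and APP-PS1 PBS mice 0.05 to 0.24 and -0.11 to 0.41. Counts of genes over the whole table moved more. Between APP-PS1 PBS and WT PBS mice 195 genes passed, 361 with DESeq2, 115 without the sex covariate, 98 without the Ttr-rich libraries and 145 to 253 with single libraries left out. Between APP-PS1 anti-CD8a and APP-PS1 PBS mice 0 passed, 13 without a low-count filter, 143 with DESeq2, 1 with the 2 groups alone, and 0 to 3 with single libraries left out. Between APP-PS1 anti-CD8a and WT PBS mice 369 passed, 221 with the 2 groups alone, 199 without the Ttr-rich libraries, and 140 (without APP-PS1 anti-CD8a replicate 3) to 441. Between labelled males and females 6 passed, 20 without a low-count filter, 18 with DESeq2, 0 with limma-voom, 0 without the Ttr-rich libraries, 11 without the library whose sex goes against its label, and 4 to 11 with single libraries left out. The Ttr-rich setting and the 2 groups alone use fewer samples; the cause of the other differences was not tested. The 1 change of sign for the pair is that of Gm1966 between the APP-PS1 groups, given above. No paired analysis was possible because the groups share no animal numbers. Of the 5 genes most like Gm8995 within groups, 4 remained with Spearman's correlation and 5 with a prior count of 0.5; for Gm1966, 3 and 4 did. Over all libraries, 1 of the 5 most like Gm8995 remained with Spearman's correlation and 5 with the other prior count; for Gm1966, 3 and 4 did. Few counted reads limit Gm1966 in WT mice (1 to 16 reads) and every family gene outside the pair. Sequence shared between copies also limits Gvin1, Gm4070, Gm18852, Gm18853, Gm8979 and Gm8989.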
